A study of Mus musculus with 8 samples.

Results

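Genes induced by interferon, together with the interferon receptors and the IRF and STAT transcription factors, were read in the cochlea of 8 CBA/CaJ mice on Affymetrix Mouse Genome 430 2.0 arrays. They were chosen by gene symbol. A gene belonged if its symbol began with a family name (Ifit, Ifi, Ifitm, Oas, Gbp, Irgm, Isg20) or was an IRF, STAT or receptor gene. A short list of further induced genes such as Rsad2, Rtp4, Usp18 and Bst2 completed the rule, and genes with no probe set naming them alone were not analysed here. This gave 69 genes, read by 98 probe sets, of 18194 genes read by 34958 probe sets that name 1 gene each. All 8 arrays form 1 group, labelled normal cochlea, and each holds the pooled ears of 1 mouse of CBA/CaJ, an inbred strain that serves as a standard of good hearing. Every mouse received urethane (300 mg/kg) and was perfused with saline to clear the blood. The bony shell was then removed and the soft tissue kept, namely the spiral ligament, the organ of Corti and the modiolus. The labels give no sex, age or array batch and no other treatment, so what the data hold is a level for each gene and its spread between mice, with no contrast between groups. The labels call the arrays replicates from separate mice, and the spread includes that of the assay.

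Interferons are secreted proteins that warn cells of infection. Type I interferons bind the receptor chains Ifnar1 and Ifnar2, and type II interferon binds Ifngr1 and Ifngr2. Receptor-bound JAK kinases then phosphorylate STAT factors. With Irf9 these form a complex that binds the interferon-stimulated response element (ISRE) in promoters, while STAT dimers bind the gamma-activated site (GAS). The induced genes encode proteins that detect viral RNA, block viral entry or replication, or attack vacuoles that hold microbes. Even without infection, most tissues keep a low tonic level of this activity.

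Interferon-induced genes differed between the mice far more than most genes did, and 1 animal, mouse 8, stood at the top for many of them. Mouse numbers are only names. The promoters of 6 members are shown because many members shared a sequence feature there that the choice by name did not use. The 6 were picked after the signals were seen. Ifit1, Ifit3 and Rsad2 were high in mouse 8, Bst2 and Irf7 were high in mice 2 and 5, and the receptor gene Ifnar1 was steady. The letters below are RefSeq's, on build GRCm38.p6, and are the 250 bases before the annotated start of each gene, 5′ to 3′ on the gene's own strand. Capitals mark matches to the ISRE core, searched on both strands as GAAA, any 2 bases and GAAA again (TTTC, any 2 bases and TTTC on the other strand).
Ifit1 (chr19:34640639-34640888, + strand): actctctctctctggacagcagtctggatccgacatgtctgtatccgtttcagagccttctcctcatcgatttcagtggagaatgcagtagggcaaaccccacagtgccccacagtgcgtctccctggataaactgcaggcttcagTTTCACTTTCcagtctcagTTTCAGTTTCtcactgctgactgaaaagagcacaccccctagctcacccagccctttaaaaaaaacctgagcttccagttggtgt
Ifit3 (chr19:34583279-34583528, + strand): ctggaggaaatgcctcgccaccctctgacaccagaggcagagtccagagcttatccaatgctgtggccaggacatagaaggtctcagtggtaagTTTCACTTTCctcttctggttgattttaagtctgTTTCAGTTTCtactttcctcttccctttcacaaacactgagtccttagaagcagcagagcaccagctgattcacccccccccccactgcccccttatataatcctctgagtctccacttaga
Rsad2 (chr12:26456453-26456702, - strand): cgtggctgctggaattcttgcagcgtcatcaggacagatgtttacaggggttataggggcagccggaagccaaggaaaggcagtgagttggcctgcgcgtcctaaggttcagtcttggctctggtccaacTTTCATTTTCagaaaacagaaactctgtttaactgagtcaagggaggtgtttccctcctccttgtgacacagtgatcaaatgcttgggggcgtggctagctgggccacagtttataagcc
Bst2 (chr8:71537473-71537722, - strand): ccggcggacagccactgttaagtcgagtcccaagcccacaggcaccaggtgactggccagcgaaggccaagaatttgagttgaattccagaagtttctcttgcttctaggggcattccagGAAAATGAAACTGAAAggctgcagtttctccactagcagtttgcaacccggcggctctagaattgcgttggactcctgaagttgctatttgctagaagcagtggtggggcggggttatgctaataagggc
Irf7 (chr7:141266425-141266674, - strand): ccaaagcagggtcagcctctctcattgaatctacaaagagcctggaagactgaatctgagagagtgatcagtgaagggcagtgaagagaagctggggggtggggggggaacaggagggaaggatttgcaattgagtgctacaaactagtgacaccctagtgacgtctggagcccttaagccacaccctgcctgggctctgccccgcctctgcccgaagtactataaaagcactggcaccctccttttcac
Ifnar1 (chr16:91484965-91485214, + strand): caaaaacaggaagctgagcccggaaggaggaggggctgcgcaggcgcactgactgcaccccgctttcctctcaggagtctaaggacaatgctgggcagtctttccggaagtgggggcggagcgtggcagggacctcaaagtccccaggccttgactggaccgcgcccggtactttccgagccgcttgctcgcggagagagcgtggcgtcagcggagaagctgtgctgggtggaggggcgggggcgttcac

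Matches to the ISRE core began at -104 and -85 from the start in Ifit1, at -156 and -122 in Ifit3 and at -120 in Rsad2. In Bst2 they began at -130 and -124 and overlapped each other, and the first of them overlapped a match to the GAS core (TTCNNNGAA, the same on both strands) at -136. The windows of Irf7 and Ifnar1 held no ISRE match, which says only that these letters are not in them. Windows of 300 bases (250 before the start and 50 after it) were listed for 54 of the 69 genes. Of these 54, 25 held an ISRE match, against 3.99% of all 27025 genes with a window, and 17 held a GAS match, against 9.55%. Among the members above background on every array, an ISRE match was found in 13 of 19 whose SD between mice was over 0.5 (log2) and in 5 of 19 with a smaller SD. The corresponding counts for GAS were 6 of 19 and 9 of 19. A match is a description of letters and not a bound site, and these counts were not tested.

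Genes above the background threshold of each of the 8 arrays are called detected here. Background was set per array at the 95th percentile of the signals of 168 probe sets, whose genes are olfactory and vomeronasal receptors or belong to unrelated organs. It ranged from 46.2 (mouse 1) to 89.0 (mouse 5) and was 48.1 in mouse 8. By this rule 46 of the 69 genes were detected (66.7%), close to the 61.8% of all genes. A further 13 were above background on some arrays only and 10 on none. Markers of the labelled tissue were present. The fibrocyte genes Coch, Otos, Slc26a4 and Car3, the neuronal genes Nefl, Nefm, Snap25 and Stmn3 and 3 of 4 hair cell genes were detected, the exception being Slc26a5 (above background on 6 arrays). Any pair of arrays correlated at r = 0.945 to 0.960 over all probe sets, and no pair was identical. Signals are in arbitrary units, so a higher signal in one probe set than in another does not mean more RNA. In whole tissue, a change in the share of a cell type and a change in RNA per cell cannot be told apart.

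The median SD between mice was 0.52 (log2 signal) among the 46 detected members, against 0.18 among all 11240 detected genes. An SD over 0.5 was found in 24 of the 46, where 2.68% of detected genes had one. Without mouse 8 this count was 15 of 46, where 2.71% of detected genes had one. An SD over 1 was found in 7 members (Mx1, Irf7, Ifit1, Iigp1, Ifit3, Usp18 and Ifi47), where 0.276% of detected genes had one. The members also moved together to some degree. The median Pearson's r between pairs of detected members over the 8 mice was 0.33, against 0.02 for pairs of all detected genes, and it was 0.37 without mouse 8. All pairs share the same 8 arrays, so these values are descriptions without a test.

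Each mouse was then set against the median of the other 7, gene by gene, in the same way for all 8. Mouse 8 was the highest mouse for 22 of the 46 detected members, where 9.42% of all detected genes were highest. Mouse 1 was highest for 6 members (34.2% of detected genes), mouse 2 for 5 (8.83%), mouse 3 for 3 (9.72%), mouse 4 for 3 (10.6%), mouse 5 for 5 (8.35%), mouse 6 for 2 (9.3%) and mouse 7 for 0 (9.57%). Mouse 4 was the lowest for 21 members, where 12.1% of all detected genes were lowest. Mouse 1 was lowest for 9 members (24.2% of detected genes), mouse 2 for 1 (4.29%), mouse 3 for 1 (13.1%), mouse 5 for 0 (6.83%), mouse 6 for 7 (12.6%), mouse 7 for 6 (7.74%) and mouse 8 for 1 (19.2%). More than 2-fold above the other mice lay 19 members in mouse 8 (0.294% of detected genes), 10 in mouse 5 (0.89%) and 7 in mouse 2 (0.116%). In mouse 6 there was 1, Irf4 (0.276%), and in mice 1, 3, 4 and 7 there were 0, where 0.267%, 0.285%, 0.0712% and 0% of detected genes exceeded that fold. Only 33 detected genes in all exceeded it in mouse 8, so members were 19 of these 33 and genes of the pathway lists described further on were 7 more. These folds describe single animals and carry no test. Mice 2, 5 and 8 together were the 3 highest mice for 20 of the 46 members, where 0.783% of all detected genes had those 3 on top. That grouping was chosen after the signals were seen. Of these 20, mouse 8 was the highest for 13, mouse 2 for 4 and mouse 5 for 3.

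**Figure D1:**
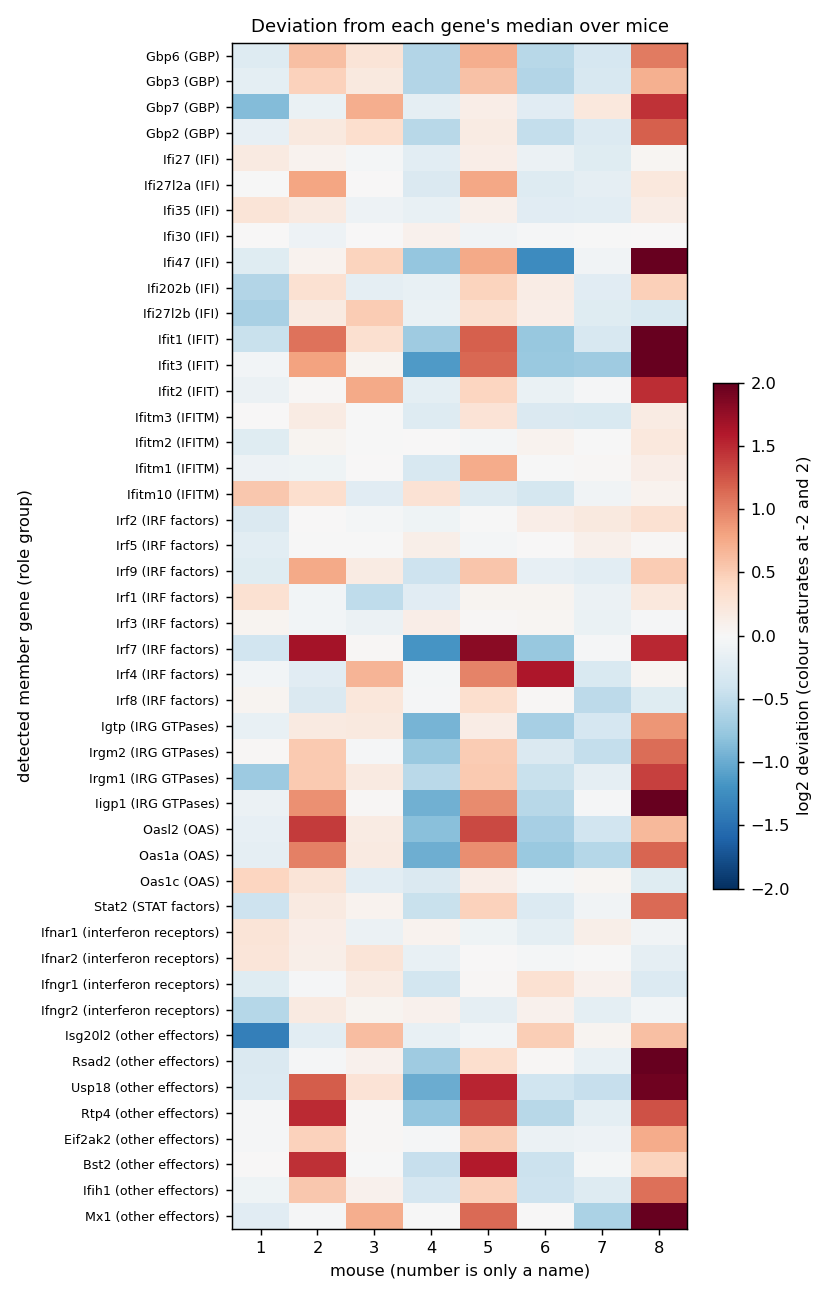
Deviation of each detected member from its own median over 8 mice (colour, log2 signal, saturating at -2 and 2), with the 46 genes in rows grouped by role and the mice in columns. Column 8 is reddest, being highest for 22 members, and column 4 is lowest for 21, while the 4 receptor rows stay pale.

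The receptors were steady. Ifnar1 ranged from 602 (mouse 6) through a median of 687 to 817 (mouse 1), and Ifnar2 from 496 (mouse 8) through 559 to 666 (mouse 3). Ifngr1 ranged from 194 to 308 and Ifngr2 from 103 to 174, with medians of 249 and 153. The 4 genes had SDs of 0.15 to 0.24 (log2), around the median of 0.18 of all detected genes. None was highest in mouse 8 and none had an SD over 0.5, where 9.42% and 2.68% of all detected genes did. For 4 genes, counts of 0 are near those shares. Where a receptor gene had 2 detected probe sets, their agreement did not pass the test described further on: r was 0.14 for the pair of Ifnar2 (exact permutation p = 0.393, adjusted p = 0.607) and -0.59 for that of Ifngr2 (exact permutation p = 0.940, adjusted p = 0.989).

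Among the 8 IRF factors, all detected, Irf7 and Irf9 had mice 2, 5 and 8 on top, and none of the other 6 did. Irf7, a driver of type I interferon production that is itself induced by interferon, measured 568 in mouse 5, 518 in mouse 2 and 464 in mouse 8, against 71.7 to 166 in the remaining 5 mice. Its SD was 1.17 (log2). The lowest of the remaining 5 mice, mouse 4, was barely above its threshold (71.7, threshold 71.5), which limits the size of the difference. Irf9, the DNA-binding partner of the STAT factors, was highest in the same mice, at 1224 in mouse 2, 1062 in mouse 5 and 1030 in mouse 8, and ranged from 543 to 816 elsewhere (SD 0.44). Irf3, which is held ready in the cytoplasm and activated by phosphorylation, was nearly constant, from 325 through a median of 356 to 390 (SD 0.09). Irf5, which acts downstream of Toll-like receptors, ranged from 746 in mouse 1 to 939, with a median of 865 (SD 0.10). Irf2, known as an antagonist of Irf1, ranged from 1268 to 1925 (SD 0.18), and Irf1 itself from 279 to 490 (SD 0.26). Irf8, a factor of myeloid cells, lay close above background in every mouse (66.6 to 121). A second probe set of Irf5 (11.8 to 40.6) and of Irf8 (21.2 to 59.9) was above background on no array.

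Irf4, a factor of lymphoid and myeloid cells, followed another order of mice. It measured 375 in mouse 6, 243 in mouse 5 and 197 in mouse 3, against 98.9 to 126 in the others (SD 0.69), and mouse 8 was at 126. This order rests on the brightest probe set of Irf4, as its other probe set (9.8 to 30.3) was above background on no array. Of the members above background on some arrays only, Ifitm5, which is made by osteoblasts, was highest at 148 in mouse 6 and 85.2 in mouse 3 and measured 2.40 in mouse 8. Ifitm6 was highest at 257 in mouse 3 and 251 in mouse 6, with 33.1 in mouse 7. The exonuclease gene Isg20 was highest at 428 in mouse 5, 313 in mouse 6 and 287 in mouse 3, with 50.1 in mouse 7. Markers of marrow-derived cells were high and low in some of the same mice: the summed signal of 8 neutrophil genes was 29479 in mouse 3, 26994 in mouse 6, 20294 in mouse 5 and 18410.5 in mouse 8, and at the low end 1928 in mouse 7. Of these 8 genes 5 were detected. The summed signal of 4 erythroid genes (1 detected) was highest in mouse 6 (11803) and mouse 3 (10215) and lowest in mouse 7 (1311). The B cell sum of 5 genes (1 detected) was 550 in mouse 6, 526 in mouse 3 and 498 in mouse 5, and lowest in mouse 7 (207). That of 4 genes of proliferating cells (1 detected) was 1545 in mouse 3 and 1459 in mouse 6, and lowest in mouse 7 (191). The part of these cells in the signals of Irf4, Ifitm5, Ifitm6 and Isg20 was not tested.

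Stat2, the STAT factor specific to type I signalling, was the single STAT gene measured here. It stood at 471 in mouse 8, against 157 to 294 in the other mice with a median of 205 (2.30-fold, SD 0.53).

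**Figure D2:**
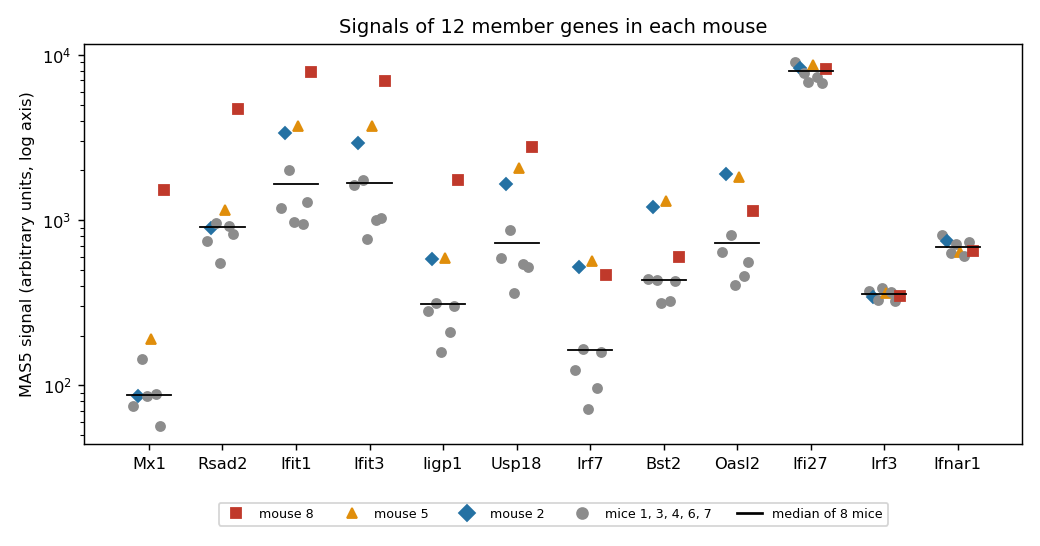
MAS5 signal (arbitrary units, log axis) of 12 member genes in each of 8 mice, with mouse 8 as squares, mouse 5 as triangles, mouse 2 as diamonds, the other mice as circles and a line at the median. Mouse 8 is alone at the top for Mx1, Rsad2 and Iigp1, mice 2 and 5 are highest for Bst2, Oasl2 and Irf7, and Ifi27, Irf3 and Ifnar1 show little spread.

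The markers Ifit1, Rsad2 and Mx1 were detected in all mice and highest in mouse 8. Ifit1 encodes a protein that binds viral RNA with an unmethylated cap. It measured 7845 in mouse 8, 3688 in mouse 5, 3389 in mouse 2 and 2000 in mouse 3, and lay between 950.5 and 1283 in mice 1, 4, 6 and 7. Mouse 8 was thus 6.11-fold above the median of the others, and mice 5 and 2 were 2.87-fold and 2.64-fold above theirs. Rsad2, or viperin, makes an altered nucleotide that stops viral RNA synthesis. Its signal was 4686 in mouse 8, against 552 to 1144 in the other 7 with a median of 890 (5.27-fold). Mouse 5 was the next highest and mouse 2 lay within the range of the rest. The dynamin-like GTPase Mx1 restricts influenza and related viruses, and many inbred mouse strains carry defective alleles of it. It had the widest spread of the detected members (SD 1.51), with 1527 in mouse 8, against 56.5 to 192 in the other 7 and a median of 86.6 there (17.6-fold). That median is the signal of mouse 4, whose threshold was 71.5, so the fold was taken against a level near background. Its relative Mx2 was above background on 2 arrays, at 287 in mouse 8 and 73.0 in mouse 2, while the 81.8 of mouse 5 was below that array's threshold.

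Ifit3 and Ifit2, the other detected IFIT genes, were highest in mouse 8 as well. Ifit3 measured 6917 in mouse 8, 3726 in mouse 5 and 2939 in mouse 2, against 767 to 1739 in the others (4.27-fold for mouse 8, SD 1.08). Ifit2 was 1458 in mouse 8, against 457 to 890 in the others (2.83-fold), and there mouse 3 and not mouse 5 was the next highest. Ifit1bl1 and Ifit1bl2, near relatives of Ifit1, were above background on 7 and 4 arrays with medians of 73.5 and 73.0. Ifit1bl1 was highest in mouse 8 (112), whereas Ifit1bl2 was highest in mouse 3 (99.4) and measured 75.7 in mouse 8.

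The immunity-related GTPases and guanylate-binding proteins, which attack vacuoles of intracellular microbes and are known as strong responders to type II interferon, were all highest in mouse 8 where detected. All 4 measured IRG genes were detected. Iigp1 was 1739 in mouse 8, 591 in mouse 5 and 581 in mouse 2, against 159 to 313 in the others (5.73-fold for mouse 8). Irgm1 was 2306, Igtp 2234 and Irgm2 2128 in mouse 8, against highest values of 1292, 1375 and 1401 in the other mice. Ifi47, an IRG gene by sequence although named as an IFI gene, was 1132 in mouse 8, against 110.0 (mouse 6) to 443 (4.56-fold). Of the 6 measured Gbp genes 4 were detected. Gbp6 was 2152 in mouse 8, against 699 to 1737, and Gbp7 was 705 in mouse 8, against 142 to 429 (2.99-fold). Gbp2 was 497 in mouse 8, against 147 to 273. Gbp3 was 839 in mouse 8 and 773 in mouse 5, so its lead there was small (1.09 times the next mouse). Gbp8 was above background on 3 arrays and Gbp2b on none.

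The oligoadenylate synthetase family, whose active enzymes make the messenger that activates RNase L, was split. Oas1a was high in mice 8 (980), 2 (877) and 5 (826), against 222 to 491 in the others. Oasl2 was highest in mouse 2 (1900) and mouse 5 (1812), with 1130 in mouse 8 and 405 to 812 elsewhere. Oas1c did not share this order, with 315 in mouse 1 and 198 in mouse 8. Oas1b, the flavivirus resistance gene of mice, was above background on 7 arrays and measured 371 in mouse 8, against 70.9 to 182.5 in the others. Oasl1 was above its threshold in mouse 8 alone (175, against 16.9 to 36.4). Oas2 and Oas3 were above background on 1 and 2 arrays, with 78.1 and 152 in mouse 8. Oas1e, Oas1f and Oas1h were above it on none.

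The other effectors showed both orders of mice. Usp18, a protease that damps type I receptor signalling, was 2751 in mouse 8, 2054 in mouse 5 and 1646 in mouse 2, against 360 to 867 in the others. Rtp4, which helps receptors reach the cell surface, was 2000 in mouse 2, 1778 in mouse 5 and 1732 in mouse 8, against 416 to 727. Bst2, or tetherin, which holds budding virus at the cell surface, was 1304 in mouse 5 and 1203 in mouse 2. Mouse 8, at 594, was 1.38-fold above the others, and the remaining mice lay between 317 and 440. The RNA sensors Ifih1 (Mda5) and Eif2ak2 (Pkr) were highest in mouse 8, at 1078 and 1181, against highest values of 732 and 993 in the other mice. Zbp1, a sensor of Z-form nucleic acid, was above background on 4 arrays and highest in mouse 8 (310). Isg20l2, a nuclease of ribosomal RNA processing that falls under the rule by its symbol, had a different pattern with 625 in mouse 1 and 1392 to 2462 in the others.

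**Figure D3:**
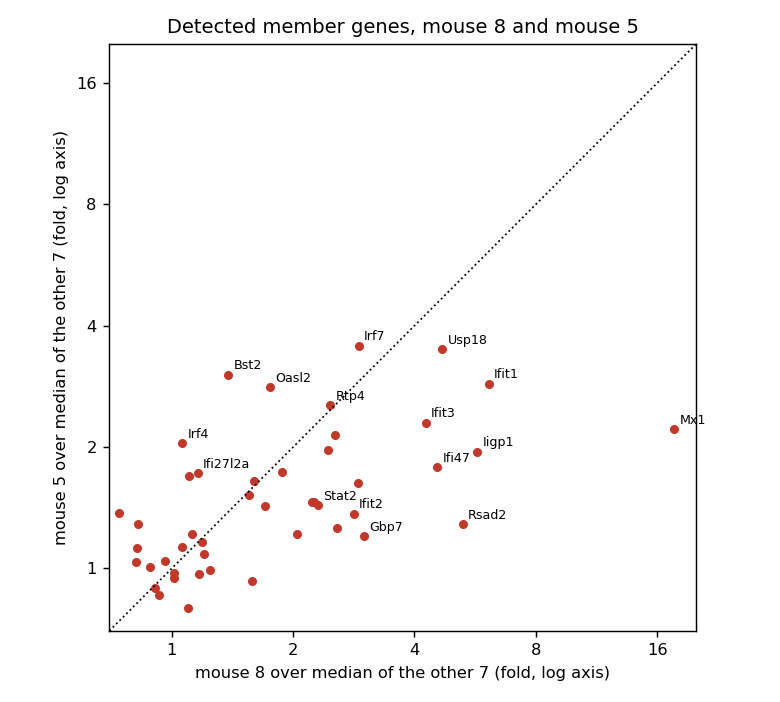
Fold of mouse 8 (x axis) and of mouse 5 (y axis) over the median of the other 7 mice for the 46 detected members, on log axes, with the dotted line marking equal folds. Mx1 and Rsad2 lie far to the right of the line at 17.6-fold and 5.27-fold for mouse 8, while Bst2, Oasl2 and Irf7 lie above it.

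The 19 members above 2-fold in mouse 8 thus did not all behave alike. In 13 of them mouse 8 was more than 1.5 times the next highest mouse, led by Mx1 (7.96 times), Rsad2 (4.10), Iigp1 (2.94) and Ifi47 (2.55). The 19 were chosen for a high mouse 8, which favours such a lead. The share of all detected genes with such a lead was not counted. In Irf7 and Rtp4 mouse 8 was not the highest. Mice 2 and 5 were both above 2-fold for 7 members, namely Bst2, Ifit1, Irf7, Oas1a, Oasl2, Rtp4 and Usp18, of 10 detected genes in all with that pattern. Of the 7, 5 were above 2-fold in mouse 8 as well, where 0.294% of all detected genes were.

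Several IFI and IFITM genes with high signals were steady. Ifi27 ranged from 6722 to 9036 (SD 0.16), and Ifi35 from 4315 to 5998 (SD 0.19). Ifi30, the lysosomal thiol reductase of antigen processing, ranged from 2510 to 2869 (SD 0.06). Ifi27l2a was an exception, with 9429 in mouse 2 and 9360 in mouse 5, against 4452 to 6292 in the others, mouse 8 included. Ifi202b ranged from 93.1 to 195 and Ifi27l2b, read by a probe set that can bind related sequences, from 85.2 to 190. Ifi44l was above background on 5 arrays and highest in mouse 8 (357, against 46.5 to 232). Ifi203, Ifi204, Ifi207, Ifi209 and Ifi213 of the Ifi200 cluster, whose members sense nucleic acids, were above background on no array. Ifitm3, which blocks viral entry at endosomes, ranged from 7017 to 10520 (SD 0.23), Ifitm2 from 2914 to 4001 (SD 0.13) and Ifitm10 from 386 to 717 (SD 0.32). Ifitm1 was 2399 in mouse 5, against 1143 to 1569 in the others. Ifitm7 was above background on no array.

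Separate probe sets of a gene read the same RNA on the same array with different probes, so each gives a reading of the order of mice. For every gene with at least 2 detected probe sets, the Pearson correlation between its 2 brightest (_x_at probe sets included) over the 8 mice, on log2 signals, was tested by an exact permutation test (one-sided, all 40320 pairings), with Benjamini-Hochberg adjustment over all 4724 genes. Of 11 members tested 5 passed at an adjusted p of 0.05, where 11.9% of all tested genes did. These were Iigp1 (r = 0.98, exact p = 9.92e-05, adjusted p = 0.0114), Gbp6 (r = 0.98, exact p = 0.000124, adjusted p = 0.0122), Ifi27 (r = 0.96, exact p = 0.000149, adjusted p = 0.0126), Rtp4 (r = 0.94, exact p = 0.00233, adjusted p = 0.0313) and Eif2ak2 (r = 0.92, exact p = 0.00389, adjusted p = 0.0412). Spearman's rho was 0.95, 0.98, 0.95, 0.81 and 0.69 in the same order (adjusted exact permutation p = 0.0232, 0.0177, 0.0232, 0.0907 and 0.156). With the 2 mice farthest from the median left out, r was 0.93, 0.97, 0.93, 0.92 and 0.72. Gbp6, Ifi27 and Iigp1 passed whichever mouse was left out. Rtp4 passed only without mouse 3 or 6 and Eif2ak2 only without mouse 6, and the count was 3 with mouse 2, 5, 7 or 8 left out. Of all tested genes a smaller share also passed with a mouse left out, 2.47% to 8.41%.

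Both detected probe sets of Rsad2 (of 3) put mouse 8 on top, at 4686 and 1766, against 552 to 1144 and 125 to 301 in the others. Their correlation (r = 0.96, exact permutation p = 0.00853) did not pass after Benjamini-Hochberg adjustment (adjusted p = 0.0615), nor did rho (0.88, exact permutation p = 0.00362, adjusted p = 0.0536), and r was 0.80 without mice 4 and 8. The pair passed without mouse 4 (adjusted exact permutation p = 0.0401) and with arrays scaled to the same median of detected genes (adjusted exact permutation p = 0.046). Without mouse 8 r was 0.68 (adjusted exact permutation p = 0.218). Those of Gbp2 (r = 0.83, adjusted exact permutation p = 0.0790) and Ifi35 (r = 0.91, adjusted exact permutation p = 0.0741) did not pass either. The pair of Gbp2 passed without mouse 1 (r = 0.93, adjusted exact permutation p = 0.0481). Its r fell to 0.52 without mouse 8 (adjusted exact permutation p = 0.293). The probe sets of Irf3 did not pass (r = 0.06, adjusted exact permutation p = 0.657).

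**Figure D4:**
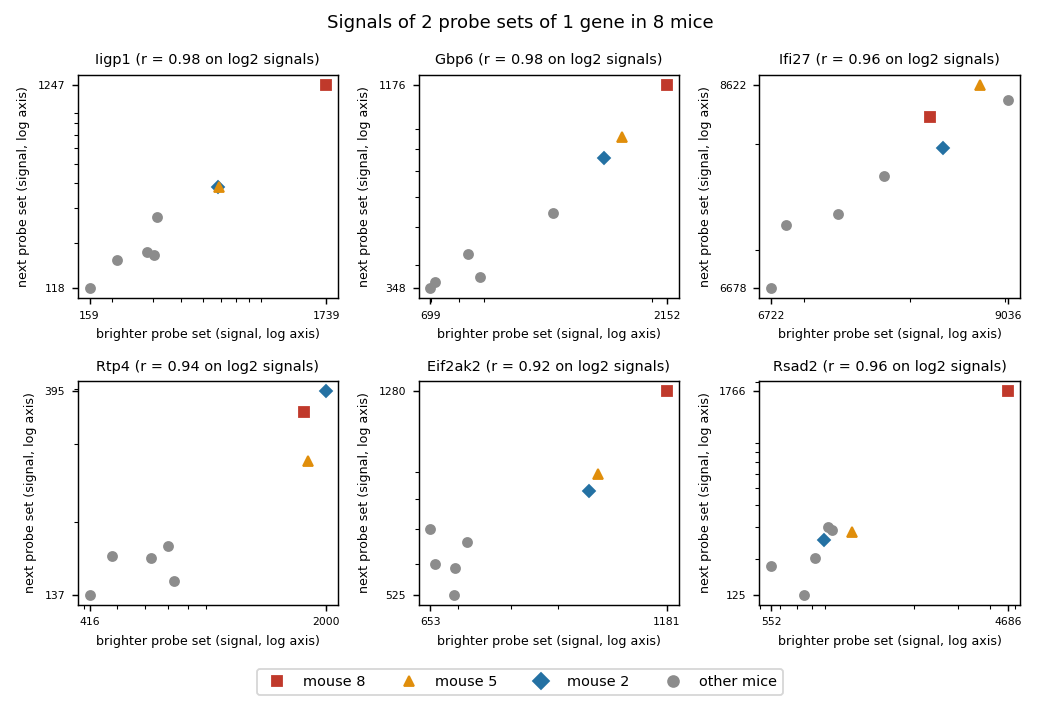
Signals of the brighter (x axis) and the next probe set (y axis) of 6 members in 8 mice, both on log axes whose end labels are the lowest and highest signals. Mouse 8 (square) is highest on both axes for Iigp1, Gbp6, Eif2ak2 and Rsad2, and mice 2, 5 and 8 lie apart from the others for Rtp4.

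Other genes of the pathway were read from lists of ligands, signalling proteins, sensors and further induced genes. Of 10 interferon ligands measured, Ifnz alone was detected (280 to 629.5, lowest in mouse 3), and Ifnb1, Ifng, Ifna1, Ifna2, Ifna4, Ifna5, Ifna9, Ifna11 and Ifnab were above background on no array. Ifnb1 measured 1.90 to 17.5 and Ifng 1.90 to 38.4. Of 14 JAK kinases, receptor partners and regulators 12 were detected. None of the 12 had an SD over 0.5, a count near the 2.68% of all detected genes that did. Their highest signals were those of the phosphatase Ptpn11 (5289 ± 612), the coactivator Crebbp (4442 ± 427) and the receptor chain Il10rb (2334 ± 204, all SD, n = 8). The kinases Jak1 (889 to 1494), Jak2 (1634 to 1929) and Tyk2 (156 to 217.5), named after their values were seen, were each lowest in mouse 8. So were Ptpn6, Il10rb and Ifnlr1 of the same list, and 19.2% of all detected genes. Crebbp and the phosphatase gene Ptpn2, of the same list, were highest in mouse 8.

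Of 17 sensors and adaptors 12 were detected, and 1 was above 2-fold in mouse 8. This was Ddx58, the RNA sensor RIG-I, with 941 in mouse 8, against 339.5 to 533 in the others. The highest signals in this list were those of Tlr3 (5255 ± 660), the antiviral zinc finger protein Zc3hav1 (1888 ± 395) and Trim25 (1182 ± 279, all SD, n = 8), of which the last 2 were highest in mouse 8. Of 40 further induced genes 27 were detected, 18 of the 27 were highest in mouse 8 and 6 were above 2-fold there. Over all genes 61.8% were detected, and of detected genes 9.42% were highest in mouse 8 and 0.294% above 2-fold. Cmpk2, the nucleotide kinase gene beside Rsad2 in the genome, was 1896 in mouse 8, against 158 to 488 (7.48-fold). Parp14, Trim30a, Cd274, Tor3a and Helz2 were the other 5, at 2.01-fold to 2.83-fold. The chemokine gene Cxcl10 was above background on 7 arrays and measured 1643 in mouse 8. These genes were named after their values were seen, whereas the highest of the list by rule were B2m (12503 ± 1153), Ly6e (4468 ± 2120) and Parp12 (2390 ± 418, SD, n = 8).

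The summed signals of immune cell markers in mouse 8 lay within the range of the other mice. The summed signal of 15 macrophage genes, of which 14 were detected, was 7986 in mouse 8, against 7776 to 11435 in the other mice. Its largest part was Lyz2, at 2963 in mouse 8, against 2477 to 5129 in the other mice, so the sum depends strongly on this gene. Among the 14 detected genes, the median fold of mouse 8 over the median of the other mice was 0.896. The macrophage receptor gene Csf1r was lowest in mouse 8 (977, against 1165 to 1956). So were Cd68, Cx3cr1, Cd14 and Fcgr3 of the detected macrophage genes, and 19.2% of all detected genes. Adgre1, C1qa and Tyrobp went the other way, with mouse 8 above the median of the other mice by at most 1.09-fold (C1qa). For 8 genes of plasmacytoid dendritic cells (4 detected, 2 of them members) the sum was 4913 in mouse 8, against 4475 to 6105. Most of that sum was Tcf4, which ranged only from 3868 to 4245, so it says little about these cells, and their defining gene Siglech was 94.3 in mouse 8, against 84.4 to 111. The macrophage sum was highest in mouse 5, where Lyz2 was also highest, and the part of these cells in the signals of mouse 5 was not tested. Of 9 genes of T and natural killer cells Cd2 alone was detected, Cd3e and Cd8a were above background on no array, and the sum was 677.5 in mouse 8, against 474 to 710. For 5 B cell genes (1 detected) the sum was 234 in mouse 8, against 207 to 550. None of the detected genes of these lists was highest in mouse 8, a count near the 9.42% of all detected genes that were.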

How the data were processed

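The labels' protocols describe TRIZOL extraction, Ovation amplification to cDNA and biotin labelling for 8 arrays. The deposited values are linear intensities (signals) per probe set, computed by the authors with MAS5 per the submitters' processing notes, with a version not given in the sources used here. Precision is limited by the number of arrays, and p-values measure only the spread between these samples. The table held 0 other columns of samples.

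Genes were named by GEO's annotation of the platform. It gives several genes for 932 probe sets and none for 9211, and these were left out. A gene was read by its brightest probe set, with _x_at probe sets only where it had no other, on the log2 scale, after values below 1 were raised to 1. No genome build is named, so signals carry no coordinates. All 69 members matched RefSeq by Entrez identifier.

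Members and gene lists were chosen with earlier results of these data known. Genes named are the markers, in each role group the 3 detected members with the highest mean and the 2 with the largest SD, the 10 with the largest SD, those with agreeing probe sets, those above background on no array and those with 1 mouse far from the others. The further members are named for completeness. Pathway lists give the 3 highest detected genes and the undetected ligands. The probe set test was checked on simulated data of 4724 genes: it called 92 of 100 genes made with a shared correlation of 0.97, 53 of 100 at 0.9 and 10 of 4524 unchanged ones. The unchanged genes were simulated as independent noise, whereas the median r over all tested genes in the real data was 0.35. These rates therefore need not hold for the real data.

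Alternatives were quantile normalization, scaling arrays to a shared median over detected genes, adding 32 before taking log2, the mean of a gene's probe sets, _x_at probe sets allowed, the 90th and 99th percentile as background, detection on at least 4 arrays, and leaving out each mouse. Computations ran in Python (3.11.15) with scipy (1.17.1), numpy (2.4.6) and pandas (2.3.3), and matplotlib (3.10.9) drew the plots.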

Additional observations from a re-analysis of the deposited data

Results flagged for a closer look

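In 5 of the 46 detected members 1 mouse lay far from the others, as the gap to the nearest mouse over the whole range of log2 signals exceeded Dixon's 95% critical value for 8 samples. Chance flags about 1 in 20 genes, and 12.8% of all detected genes met the criterion. Rsad2 (ratio 0.659) and Mx1 (ratio 0.629) had mouse 8 far above the others, at 4686 and 1527, against at most 1144 and 192. A gap of this kind with mouse 8 on top was found in 0.187% of detected genes. Ifitm1 (ratio 0.573) had mouse 5 far above the others, at 2399, against at most 1569. Isg20l2 (ratio 0.584) and Irf5 (ratio 0.540) had mouse 1 far below the others, at 625 and 746, against at least 1392 and 845.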

How the results depend on the processing

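The number of detected members ranged from 34 (background at the 99th percentile) to 53 (detection on at least 4 arrays) and was 46 or 47 with any mouse left out. In those 2 settings 50.4% and 68.1% of all genes were detected, and 61.8% to 62.8% with a mouse left out. The number with an SD over 0.5 ranged from 16 to 29 in the same 2 settings, where 1.3% and 4.74% of detected genes had one. It ranged from 15 (without mouse 8) to 25 with a mouse left out, where 2.24% to 3.25% of detected genes had one. The median SD of detected members was 0.37 to 0.56 with a mouse left out, lowest without mouse 8, and the median pairwise correlation was 0.31 to 0.39. Members with agreeing probe sets numbered 3 to 5 with a mouse left out and 3 with background at the 99th percentile, where fewer members (5) were tested. They numbered 6 with scaling to a shared median, where Rsad2 was added, and 6 with detection on at least 4 arrays, where Ifi44l was added. Leaving out mouse 2, 5, 7 or 8 gave the count of 3, and the cause was not tested. Of all tested genes 11.9% passed in the main setting and 2.47% to 8.41% with a mouse left out. This share was 4.88%, 4.88%, 6.79% and 5.99% without mouse 2, 5, 7 and 8. It was 15.6% with background at the 99th percentile, 14.1% with scaling to a shared median and 9.56% with detection on at least 4 arrays. No paired analysis was possible because all arrays form 1 group. Of 470 values of the log2 ratio of highest to lowest mouse for 47 named members, 30 moved by more than the gene's SD, 11 of them without mouse 8, 10 with 32 added to the signal and 0 under quantile normalization. Irf8, Irf7 in mouse 4 (71.7 with a threshold of 71.5) and Mx1 in mouse 7 (56.5 with a threshold of 53.2) lay close to background, which limits what their differences show.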

Other observations

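The genes most like Ifit1 in their order of mice were mostly of the same kind. Among all other detected genes, ranked by Pearson's r with Ifit1 over the 8 mice (a description chosen after the data were seen), the first 5 were Ifih1 (0.99), Gbp6 (0.98), Dtx3l (0.98), Irgm1 (0.97) and Usp18 (0.97). Without mouse 8 their r with Ifit1 was 0.98, 0.99, 0.97, 0.94 and 0.97. The 5 were picked on the same mice, so these values are no separate check, and some genes lower in the ranking fell further without mouse 8, such as Ifi47 (0.83, against 0.92 with all 8) and Rragd (0.79, against 0.90). Genes on no list here also ranked high, among them Rnf213 (0.94), Tbrg1 (0.93) and Trim12c (0.93).

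Of the 20 detected genes with the largest fold of mouse 8 over the median of the other mice, 13 were members and 4 more were on the pathway lists. The 3 on neither were Phf11d (265 in mouse 8, against 61.6 to 150), Ccl12 (488 in mouse 8, against 96 to 340) and Tnfsf10 (539 in mouse 8, against 121 to 331), the last of which encodes the death ligand TRAIL.

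A further 11 probe sets name several genes, of which at least 1 meets the symbol rule, and they were not used above. Of these, 5 were above background on all arrays, and 3 of the 5 were highest in mouse 8, where 9.42% of all detected genes were. Among the 5, the fold of mouse 8 over the median of the other mice ran from 1.0 to 6.70. The share among all probe sets that name several genes was not counted.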
